A study of Mus musculus with 4 samples.

Results

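The carbonic anhydrase genes Car2, Car3, Car4, Car8 and Car14 were followed in the embryonic mouse heart through all 8 probe sets that name 1 of them and no other gene. These 5 genes are among 12393 genes named on the array. They were chosen with their atrioventricular against ventricular values already known, so their differences between the regions are described here without a test. The atrioventricular (AV) junction and the ventricular region were microdissected from wild-type C57BL/6 embryos between embryonic days 10.5 and 11.0, and tissue of about 80 hearts was pooled for each region. Total RNA (230 ng of AV junction, 250 ng of ventricular region) was amplified and read on 2 Affymetrix MOE430A arrays per region, named replicate 1a and 1b. The sources used here do not say whether these arrays came from separate pools, so every p-value below measures only the spread between arrays.

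Carbonic anhydrases are zinc enzymes that interconvert carbon dioxide and bicarbonate with the uptake or release of a proton. Red blood cells use them to carry carbon dioxide, and muscle and transporting epithelia use them to move acid and bicarbonate across membranes. The members of the family differ in where they sit. Car1, Car2, Car3, Car7 and Car13 encode cytosolic enzymes, Car4 an enzyme held outside the cell by a lipid anchor, Car9, Car12 and Car14 enzymes that span the membrane, Car5a and Car5b mitochondrial enzymes and Car6 a secreted one. Car8, Car10 and Car11 encode related proteins without the enzyme activity.

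Intensities are given on a scale where each array has a trimmed mean of 500, and a log2 fold is the AV junction minus the ventricular region, taken on log2 of intensity plus 50. Levels of different probe sets cannot be set against each other, since each binds its target with its own strength. Background was taken from control probe sets for Bacillus subtilis transcripts, and the brightest of them read 58.6 and 52.6 on the AV arrays, against 97.9 and 104 on those of the ventricular region. Of the 8 member probe sets 4 reached the floor of a mean intensity of 100, covering Car2, Car3 and Car8, and the same 4 read above the control on all 4 arrays. The other 4 probe sets, which include all of those for Car4 and Car14, lay below the floor. The arrays of the regions did not overlap for 6 of the 8 member probe sets, 3 of them higher and 3 lower in the AV junction, where 53.3% of all 22626 probe sets show no overlap. Among the probe sets above the floor this held for 4 of 4 members and 61.2% of all. For comparison, limma called 7.24% of the probe sets above the floor higher and 6.58% lower at an adjusted p of at most 0.05. Nothing is read from the members' counts, since they were chosen on this contrast.

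**Figure D1:**
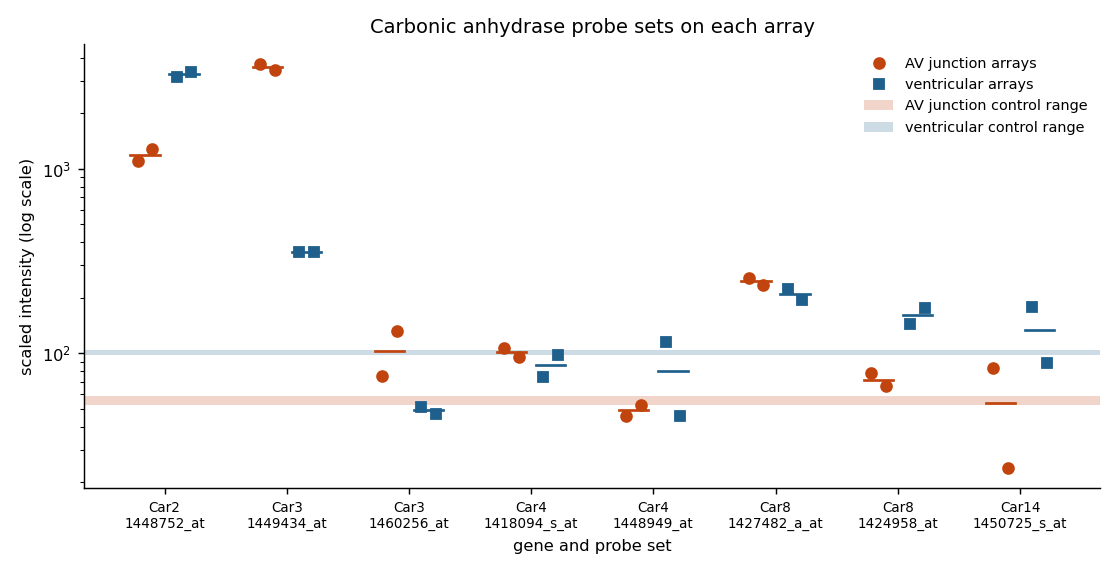
Scaled intensity (log scale) of each carbonic anhydrase probe set on the AV junction arrays (circles) and ventricular arrays (squares), with short lines at the mean of each region (n = 2) and bands for the brightest Bacillus subtilis control of each region's arrays. Car2 and the bright Car3 probe set stand far above the bands with opposite order of the regions, and the Car4 and Car14 probe sets lie near the bands.

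Car3 showed the widest difference between the regions among the 5 genes. Car3 encodes a cytosolic carbonic anhydrase of low activity that is best known from skeletal muscle, liver and fat. Its bright probe set, 1449434_at, read 3688 and 3436 in AV tissue against 353 and 354 in ventricular tissue. Both AV arrays lay far above both ventricular ones, and the arrays of a region differed little. The means were 3562 ± 178 (SD, n = 2) for AV and 354 ± 0.802 for ventricular tissue. The difference was 3.16 on the log2 scale (SE 0.11), which is 8.94-fold with the added 50 and 10.1-fold as a plain ratio of the means. Car3 stood 10th from the top among the folds of the 8410 genes tested. The ventricular readings were above background, at 3.61 and 3.40 times the control of their array, against 62.9 and 65.3 times on the AV arrays.

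A second Car3 probe set, 1460256_at, was dim. It read 75.1 and 132 in AV tissue against 51.3 and 47.0 in ventricular tissue. Both AV arrays were again the higher ones and lay above their control, while both ventricular arrays lay below theirs. On the log2 scale the AV mean was no higher than that ventricular background, so no fold is given for this probe set. It keeps the order of the regions seen on the bright Car3 probe set and gives no second estimate of its size.

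Car2 had the opposite order. Car2 encodes the fast cytosolic enzyme of red blood cells, kidney and osteoclasts. Its only probe set, 1448752_at, read 1106 and 1278 in AV tissue against 3144 and 3345 in ventricular tissue. Both ventricular arrays were higher than both AV arrays. The means were 1192 ± 122 for AV and 3245 ± 142 for ventricular tissue (SD, n = 2). The difference was −1.41 on the log2 scale (SE 0.11), or 2.66-fold higher in the ventricular region. By its fold Car2 stood 41st from the bottom of the 8410 genes. All of its readings were at least 18.9 times the control of their array.

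The probe sets of Car8 went different ways. Car8 encodes a carbonic anhydrase-related protein that has lost enzyme activity and binds the inositol trisphosphate receptor, a calcium release channel. The brighter probe set, 1427482_a_at, read 256 and 234 in AV tissue against 222 and 195 in ventricular tissue, which is 0.19 on the log2 scale (SE 0.18). The AV arrays were the higher ones, by about the fold's own error. The dimmer probe set, 1424958_at, read 77.7 and 66.0 in AV tissue against 145 and 177 in ventricular tissue, which is −0.79 on the log2 scale (SE 0.25). Here the ventricular arrays were the higher ones. That dimmer probe set lay close to background, at 1.33 and 1.25 times the control on the AV arrays and 1.48 and 1.69 times on the ventricular arrays. Its direction is also that of dim probe sets at large. When the tested probe sets were ranked by brightness in 5 equal bins, the median log2 fold was −0.21 over the 2681 of the dimmest bin, to which it belongs, and −0.07 over all 13403. The part of that trend, and of the higher control on the ventricular arrays, in the value of Car8 was not tested. The probe sets together give Car8 no settled direction.

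Car4 and Car14, whose proteins face the outside of the cell, were at or near background. Car4 encodes the lipid-anchored enzyme of capillary walls and heart muscle. Probe set 1418094_s_at of Car4 read 107 and 95.5 in AV tissue against 74.4 and 97.3 in ventricular tissue, so the regions overlapped and both ventricular arrays were below their control. Probe set 1448949_at of Car4 read 45.9 and 52.3 against 114 and 45.9, with 1 of 4 arrays above its control. No fold is given for either, since the regions overlapped on both. A difference in Car4 was not detectable at this signal.

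Car14 encodes the membrane-spanning enzyme of heart, kidney and liver. Its probe set, 1450725_s_at, read 83.1 and 23.8 in AV tissue against 178 and 88.5 in ventricular tissue. The AV arrays were both lower than the ventricular ones, but the gap between the nearest arrays was narrow and the arrays of a region lay far apart, at 53.4 ± 41.9 for AV and 133 ± 63.0 for ventricular tissue (SD, n = 2). In each region 1 of 2 arrays was above its control. The log2 fold of −0.84 compares with a spread of 0.56 (SD, log2) between arrays of a region, and it ran from −1.27 to −0.42 when single arrays were left out.

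**Figure D2:**
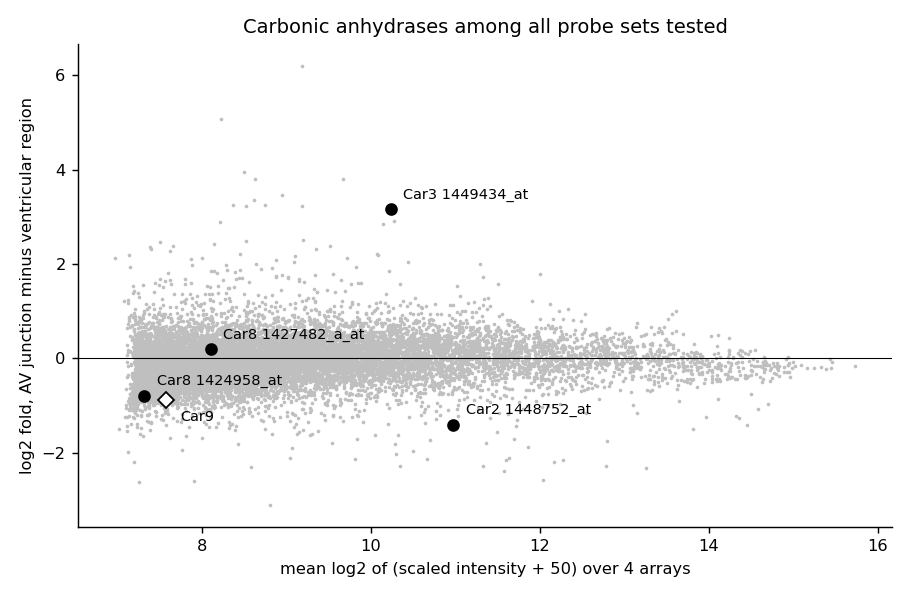
Log2 fold, AV junction minus ventricular region, against mean log2 of (scaled intensity + 50) over the 4 arrays for the 13403 probe sets tested (grey), with the tested probe sets of Car2, Car3 and Car8 as black circles and Car9 as an open diamond. Car3 lies at 3.16 and Car2 at −1.41 among bright probe sets, while the Car8 probe sets and Car9 lie among dim ones.

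Car2 and Car3 are neighbours in the genome. In the RefSeq gene table of assembly GRCm38.p6 the 4 genes Car13, Car1, Car3 and Car2 follow each other on chromosome 3 with no other protein-coding gene between them. The readings along this row did not move together. Car13 encodes a cytosolic enzyme and read 182 and 88.8 in AV tissue against 121 and 121 in ventricular tissue on its brighter probe set, 1421307_at (log2 fold 0.07, SE 0.30, limma adjusted p = 0.894). The dimmer probe set of Car13 read 77.4 and 95.9 against 92.5 and 123. Car1, the other red cell enzyme of the row, read 49.3 and 51.6 in AV tissue against 17.4 and 27.2 in ventricular tissue, at or below the control of each array. Within the row, Car3 was thus higher and Car2 lower in the AV junction, the regions overlapped for Car13 and Car1 gave no signal above background.

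Among the other carbonic anhydrases Car9 was the only one called. The array names 11 more genes of the family through 12 probe sets, of which 10 lay below the floor, so that 2 genes were tested. Of these 0 rose and 1 fell in AV relative to ventricular tissue and 1 did not pass, where the limma fit called 15.0% of all 8410 genes (8.47% higher, 6.54% lower). Since these genes are what was left of the family once the members had been chosen, their count is no independent sign of anything. Car9, which encodes a membrane-spanning enzyme known as a target of the hypoxia factors, read 91.1 and 90.5 in AV tissue against 185 and 232 in ventricular tissue. Both ventricular arrays were higher, and all 4 arrays were above their control. The difference was −0.87 on the log2 scale (SE 0.23, limma adjusted p = 0.0442). That call was lost whichever of the 4 arrays (AV 1a, AV 1b, ventricular 1a, ventricular 1b) was left out, with an adjusted p of up to 0.193, and over all alternatives the adjusted p ran from 0.0358 to 0.193. Car9 too lies in the dimmest bin, where the median log2 fold was −0.21.

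Car11, of the related proteins without activity, read 68.7 and 144 in AV tissue against 11.4 and 41.9 in ventricular tissue, with both AV arrays above their control and neither ventricular one. Car6, the secreted enzyme, read 41.6 and 11.4 against 101 and 73.1, and only 1 ventricular array was above its control. The regions overlapped for Car12 (56.0 and 63.3 against 59.3 and 62.4), for Car15 (94.8 and 80.4 against 149 and 32.9), for Car5a (8.38 and 57.0 against 42.9 and 55.7), for Car5b (18.8 and 9.05 against 11.1 and 69.1), for Car7 (10.7 and 15.4 against 41.2 and 14.4) and for Car10 (10.7 and 40.2 against 30.2 and 31.5). Car1, Car5b, Car7 and Car10 were at or below the control on all 4 arrays. Readings of all probe sets below the floor in this group lay between 8.38 and 149.

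**Figure D3:**
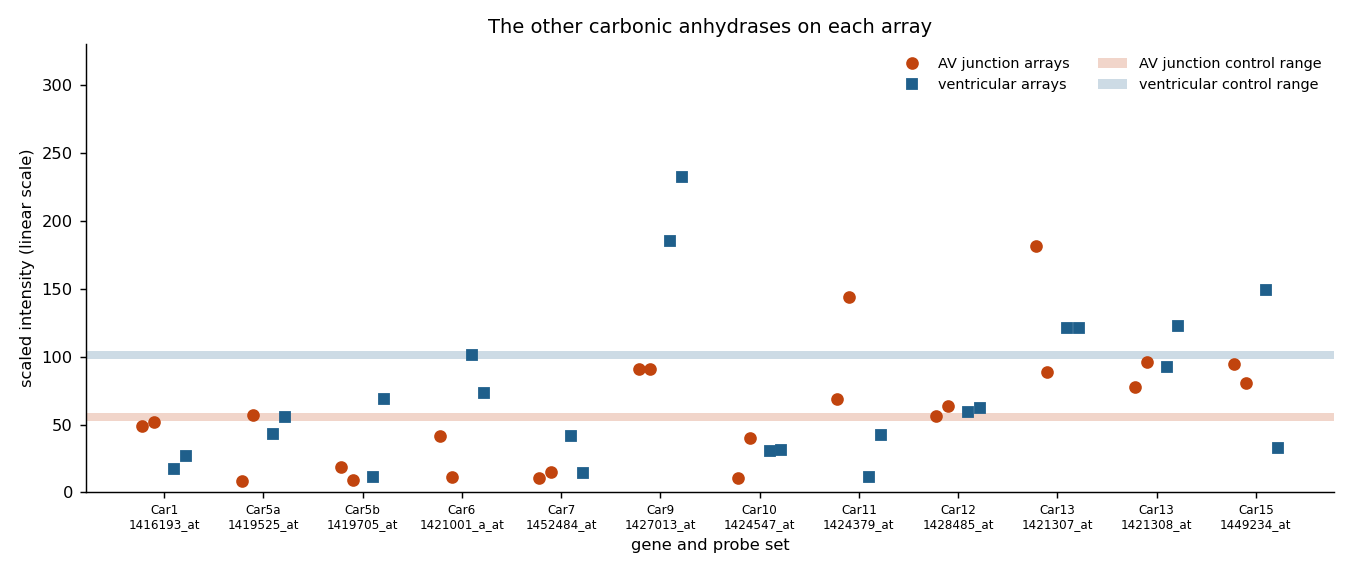
Scaled intensity (linear scale) of the 12 probe sets of the other carbonic anhydrases on the AV junction arrays (circles) and ventricular arrays (squares), with bands for the brightest Bacillus subtilis control of each region's arrays. Only Car9 has all arrays above their control and no overlap of the regions, and Car1, Car5b, Car7 and Car10 stay at or below the bands.

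Promoter sequence from RefSeq (GRCm38.p6) was at hand for 11 of the 16 family genes on the array, among them Car4 and Car14 of the members. The 250 bases before each start site were searched on both strands for ACGTG, the core of the element bound by hypoxia factors (CACGT on the other strand), a motif chosen after the values were seen because Car9 is a known target. The 11 genes have 15 promoters in the table, and 4 of these held it, 1 each of Car6, Car9, Car10 and Car14, with 2, those of Car9 and Car14, holding it within the last 60 bases. Of all 32841 promoters 16.6% held the motif in 250 bases and 5.01% in the last 60. The stretches below are the 60 bases that end just before the start site, shown to place the motif in Car9 and Car14 beside Car4, whose stretch holds no match. They run 5′ to 3′ on the gene's strand, with matches in capitals.
Car9 (chr4:43506966-43507025, plus strand): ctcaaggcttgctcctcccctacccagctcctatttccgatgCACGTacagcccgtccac
Car14 (chr3:95904686-95904745, minus strand): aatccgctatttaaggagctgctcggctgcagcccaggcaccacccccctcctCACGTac
Car4 (chr11:84957694-84957753, plus strand): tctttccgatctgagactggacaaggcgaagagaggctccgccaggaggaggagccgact
In Car9 the match begins 18 bases and in Car14 7 bases before the start site. In Car6 and Car10 the nearest match begins 148 and 145 bases before it. Nothing is drawn from the motif about the readings of these genes. A match of letters is a description of the sequence and does not show that a factor binds there.

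Genes of the response to low oxygen did not share 1 direction. Of 19 tested 2 were higher, 1 was lower and 16 did not pass, against 8.47% higher and 6.54% lower over all genes, and the median log2 fold was 0.11 against −0.06 over all genes tested. Ddit4, an inhibitor of growth signalling, read 571 and 618 in AV tissue against 325 and 276 in ventricular tissue (log2 fold 0.88, limma adjusted p = 0.0112), and its call was lost when either array 1b, AV or ventricular, was left out (adjusted p up to 0.0586). Egln3, a prolyl hydroxylase that marks the hypoxia factors for decay, read 668 and 716 against 379 and 330 (0.88, adjusted p = 0.00945), while its second probe set gave 0.12 and did not pass. Hk1, the first enzyme of glycolysis, was lower in the AV junction at 1851 and 1831 against 2792 and 2598 (−0.54, adjusted p = 0.0137), a call lost when AV array 1b or either ventricular array (1a, 1b) was left out (adjusted p up to 0.0828), and its second probe set gave −0.29 and did not pass. The count rests on the brightest probe set of each gene. Among the 16 that did not pass, Ndrg1 (0.15) and Slc2a1 (−0.13) had another probe set that passed as higher, at 1.09 (limma adjusted p = 0.0455) and 0.48 (adjusted p = 0.0217). Adm, which encodes a vessel-widening peptide, lay below the floor and was not tested, but read 148 and 137 in AV tissue against 4.36 and 16.4 in ventricular tissue, below the control there. Ndrg1, Slc2a1 and Adm were singled out after their values were seen.

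Proteins that carry bicarbonate work with carbonic anhydrases, which supply or remove their cargo. Of 5 bicarbonate transporter genes tested 0 were higher and 1 was lower in the AV junction, and 4 did not pass (median log2 fold −0.12). Over all genes tested 8.47% were called higher and 6.54% lower. The lower one was Slc4a1, the chloride and bicarbonate exchanger of the red cell membrane. Slc4a1 read 2032 and 1778 in AV tissue against 7170 and 6971 in ventricular tissue (log2 fold −1.87, SE 0.10, limma adjusted p = 0.000148), and a second probe set gave −1.34 (adjusted p = 0.00162). Both ventricular arrays stood far above the AV arrays, as for Car2.

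Of 4 gas and water channel genes tested 1 was higher, 2 were lower and 1 did not pass, against 8.47% higher and 6.54% lower over all genes. Rhag, the gas channel protein of the red cell membrane, read 106 and 122 in AV tissue against 420 and 337 in ventricular tissue (log2 fold −1.38, limma adjusted p = 0.00595, or 0.0504 without ventricular array 1a). The water channel gene Aqp3 read 28.8 and 84.1 against 183 and 189 (−1.20, adjusted p = 0.0452, with 1 of 2 AV arrays above the control). Aqp1, a water channel of vessels and red cells, read 312 and 327 against 80.8 and 165 (1.14, adjusted p = 0.0308, with 1 of 2 ventricular arrays above the control). The call of Aqp3 was lost when AV array 1a or either ventricular array (1a, 1b) was left out (limma adjusted p up to 0.157), and that of Aqp1 when ventricular array 1a or either AV array (1a, 1b) was (up to 0.106).

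Among proton and lactate transporters limma called 0 of 6 genes in either direction (median log2 fold −0.19), and 1 was lower at an unadjusted p under 0.05. Over all genes tested it called 15.0%, so 0 calls in a list this short says little. The brightest were the scaffold genes Slc9a3r1 (783 and 789 in AV tissue against 740 and 1004 in ventricular tissue) and Slc9a3r2 (833 and 764 against 638 and 676), with limma adjusted p of 0.618 and 0.195. Emb, whose brightest probe set did not pass (log2 fold 0.06), had another that did (0.77, limma adjusted p = 0.0423); it was singled out after its values were seen. Among inositol trisphosphate receptors and their partners limma called 0 of 6 as well (median −0.14), with 0 at an unadjusted p under 0.05. Of the receptors themselves Itpr2 was the only one tested, Itpr3 lay below the floor and the remaining one was not analysed here. This count thus covers little of what the Car8 protein is known to bind. Itpr3 read 62.0 and 118 in AV tissue against 11.7 and 25.8 in ventricular tissue, below the control there. Mrvi1, a partner gene below the floor, read 75.7 and 85.8 against 34.2 and 9.39, again below the ventricular controls. The other genes below the floor, Plcb4 and Plcg1, were at or below the control on all arrays. Itpr3 and Mrvi1 were singled out after their values were seen. Ahcyl1, which encodes a binding partner of the receptor, read 1194 and 1304 against 1224 and 1266 (log2 fold 0.00, adjusted p = 0.986). Itpkb, a kinase of inositol trisphosphate, read 203 and 225 against 307 and 73.8 (0.33, adjusted p = 0.645), and its fold was 1.09 without ventricular array 1a and −0.44 without ventricular array 1b, so it has no settled direction.

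Transcripts of other cell types moved with the regions beside Car2 and Car3. In bulk tissue, fewer cells of a type and less RNA per cell cannot be told apart. Of 15 erythroid genes tested, Slc4a1 and Rhag among them, 0 rose and 10 fell in AV relative to ventricular tissue, with a median log2 fold of −0.76. The shares over all genes were 8.47% higher and 6.54% lower. The summed intensity of the 17 erythroid genes measured was 45770 to 47245 on the AV arrays and 84569 to 91639 on the ventricular arrays. Most of each sum comes from Hbb-y and Hbb-bh1, so it says little about the other genes. Only Epb42 was at or below the control on all arrays. The embryonic globin genes Hbb-y and Hbb-bh1, the brightest of the list, had log2 folds of −0.42 and −1.26 on their brightest probe sets. Their other probe sets gave −0.48 and −1.24 for Hbb-y and −1.49 and −2.38 for Hbb-bh1. The fold of Car2 was −1.41, beside the list median of −0.76. That median is the fold of Hba-a1, a dim probe set with 1 of 2 AV arrays above the control. The folds of the tested erythroid genes ran from −2.12 (Hemgn) to −0.0046 (Tal1), so Car2 lies within their range. The part of red cells in the value of Car2 was not tested.

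Of 6 liver and yolk sac genes tested 4 rose and 0 fell in AV relative to ventricular tissue, with a median log2 fold of 1.31. Here too the shares over all genes were 8.47% higher and 6.54% lower. The 12 genes measured summed to 7542 to 7856 on the AV arrays and 945 to 1012 on the ventricular arrays. Most of the sum on the AV arrays is Afp. Apoa4 and Fgb were at or below the control on all arrays. The fetal serum protein gene Afp read 5214 and 4665 in AV tissue against 17.1 and 18.8 in ventricular tissue, and Ttr, a thyroid hormone carrier, 1166 and 1252 against 97.2 and 51.3. Both had ventricular readings below background. Alb and Rbp4, which were also called higher, read above it on both ventricular arrays, at 139 and 118 for Alb and 139 and 110 for Rbp4. The part of such tissue in the value of Car3 was not tested. Of 3 skeletal myoblast genes tested 0 were higher, 1 (Tnni2) was lower and 2 did not pass. The second probe set of Tnni2 gave −0.85 and did not pass. Of the defining genes Myog, Myf5, Myf6 and Pax7 were at or below the control on all arrays. Myod1, another defining gene, was above the control on all 4 arrays at 76.7 and 153 in AV tissue against 138 and 158 in ventricular tissue, and the regions overlapped. The 10 genes summed to 504 to 910 on the AV arrays and 929 to 1143 on the ventricular arrays, but 7 of them lay below the floor and the control itself was higher on the ventricular arrays, so no order is read from these sums. The part of such cells in the value of Car3 was not tested.

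Marker lists of the labelled regions were called mostly in the direction of the labels. These lists were chosen with earlier results of these data known, so their counts are no independent check of the dissection. Over all genes tested 8.47% were called higher and 6.54% lower. Of 11 ventricular chamber muscle genes tested 10 were lower in the AV junction and 0 higher (median log2 fold −2.16). AV canal muscle genes were higher for 5 of 8 (median 1.13) and cushion mesenchyme genes for 9 of 12 (median 1.95), with 0 lower in each. Endocardial and endothelial genes went both ways, with 2 higher and 2 lower of 10. In the epicardial list 0 were higher and 2 lower of 8, and in the neural and neural crest list 0 were higher and 1 lower of 5.

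**Figure D4:**
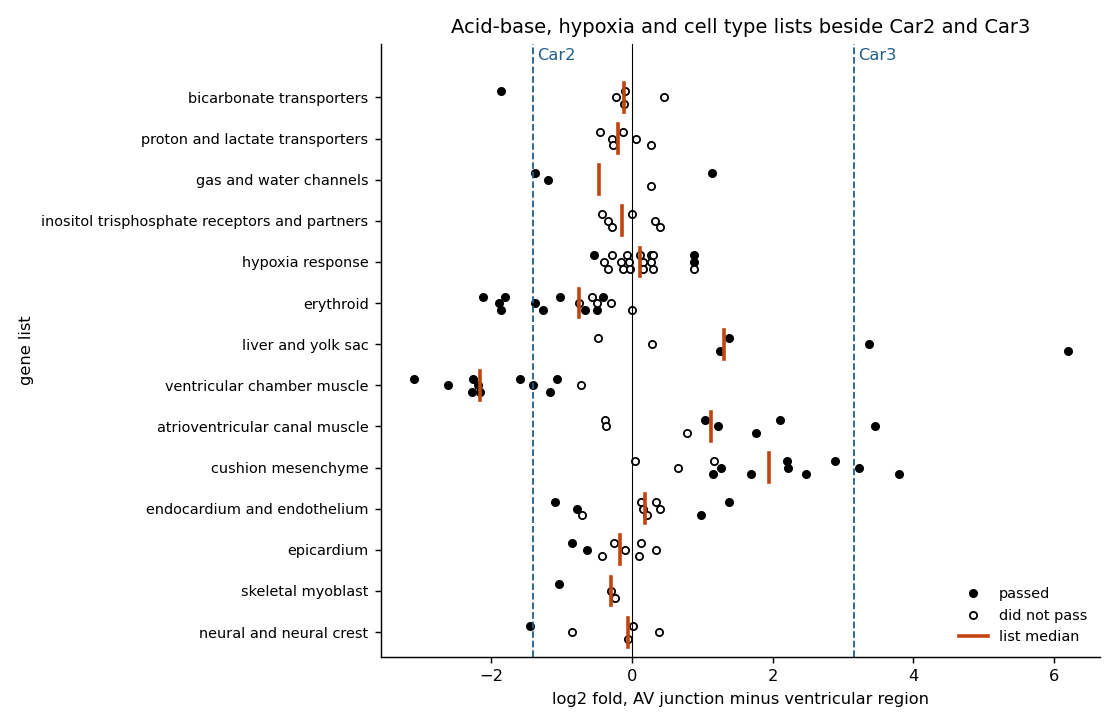
Log2 folds, AV junction minus ventricular region, of the tested genes of each list (filled where limma's adjusted p was at most 0.05, open where it was not), with the list median as a vertical bar and the folds of Car2 and the bright Car3 probe set as dashed lines. Car2 at −1.41 falls within the erythroid and ventricular chamber muscle lists, and Car3 at 3.16 within the spread of the cushion mesenchyme, AV canal muscle and liver and yolk sac lists.

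The genes most like each member over the 4 arrays were found by the distance between log2 profiles, each centred on its own mean, among 8407 other genes tested. Nearest to Car2 were Myl2, the ventricular myosin light chain gene (distance 0.06, log2 fold −1.41), the imprinted gene Mest (0.09, −1.43) and the chemokine gene Cxcl12 (0.14, −1.32). Nearest to Car3 were Vsnl1, for a neuronal calcium sensor (0.11, 3.26), Cav1, the caveolin of membrane pits (0.27, 2.91), and Shisa2 (0.29, 3.23). Vsnl1 and Shisa2 had both ventricular readings below background, so their folds, unlike that of Car3, rest on a background level. For the brighter probe set of Car8 the nearest were Lemd2, Fbxo45 and Rpl14, at distances of 0.02 to 0.03. For Car4 and Car14 no neighbours are given, since their readings lay at or near background. A profile over 4 arrays is little more than the difference between the regions, so these are genes of a like fold.

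Over all 13403 probe sets tested limma called 13.8%, 970 of them higher and 882 lower in AV tissue. Without single arrays the counts were 404 to 507 higher and 261 to 501 lower, the smallest without ventricular array 1a. The arrays correlated at 0.981 within the AV junction, 0.979 within the ventricular region and 0.947 to 0.950 between regions; these are correlations over probe sets, and probe sets are no replicates.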

How the data were processed

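The values deposited by the authors are linear intensities, 1 for each probe set of an array, made with MAS5 per the submitters' processing notes. A version, detection calls and a genome build are not given in the sources used here. Arrays were brought to a common 2% trimmed mean of 500 over 22626 non-control probe sets (a factor of 3.35). Probe sets with a mean of at least 100 (13403) entered limma 3.58.1 (lmFit, then eBayes with trend, 7.43 total degrees of freedom) in R 4.3.3 on log2 of intensity plus 50, with a term for region and no other, over 4 arrays. Adjusted p is Benjamini-Hochberg's over all probe sets tested. On simulated arrays with known folds the fit recovered most of the changed probe sets with the right sign, but the share of false calls was above the nominal threshold in every draw, so calls near the threshold are weak.

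A gene is represented by its brightest tested probe set. Symbols come from the platform annotation, with 20351 of 20380 Entrez ids matched in the RefSeq gene table. List genes without a named probe set (4 erythroid genes, for example) were not analysed here. For members no fold is given where all arrays of a region lay at or below the brightest of 27 Bacillus subtilis control probe sets; bounds there were under 1 or the regions overlapped.

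Members, lists and tests were chosen with earlier results of these data known. Named genes are all carbonic anhydrases, the up to 4 largest calls of each pathway list (or its 2 brightest genes) and the 3 nearest profiles per member (not printed for Car4 and Car14, for lack of signal). Of the markers, the brightest erythroid and liver and yolk sac genes are named. Further marker genes were named after their values were seen, among them Alb, Rbp4, Hba-a1, Hemgn, Tal1, Tnni2, Myod1 and those at or below the control. Alternatives were quantile normalization, median scaling, a pseudocount of 1 or 200, no floor or a floor of 300, eBayes without trend, the replicate letter as a block, averaging the probe sets of a gene, and each array left out. All arrays were hybridised and scanned on the same day, so no batch by day of these steps could be set apart. Arrays limit the precision by their number.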

Additional observations from a re-analysis of the deposited data

How the results depend on the processing

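The 5 member folds that could be recomputed (Car2, bright Car3, both Car8 probe sets and Car14) kept their sign in all 56 values under the alternatives. Most of these values could not have changed sign. The arrays of the regions did not overlap for these probe sets, so leaving out an array or changing the pseudocount keeps the order. The floor, eBayes and block settings leave a fold as it was. Only quantile normalization and median scaling could have turned a sign. Median scaling, which moved the median log2 fold of all tested probe sets from −0.07 to 0.09, gave −1.25 for Car2, 3.32 for Car3, 0.35 for the brighter and −0.63 for the dimmer Car8 probe set. Quantile normalization gave 0.30 and −0.63 for Car8. A pseudocount of 1 gave 3.33 for Car3, −1.15 for the dimmer Car8 probe set and −1.47 for Car14, and one of 200 gave 2.76 for Car3 and −0.41 for that Car8 probe set. With single arrays left out Car2 lay between −1.51 and −1.31, Car3 between 3.11 and 3.21, Car8 between 0.11 and 0.27 on the brighter and −0.90 and −0.68 on the dimmer probe set, and Car14 between −1.27 and −0.42. A floor of 300 leaves out Car8 and Car9. Median scaling called 1714 higher and 459 lower probe sets (78.9% of calls higher against 52.4%), no floor 580 and 431, eBayes without trend 326 and 343, and single arrays left out 404 to 507 and 261 to 501. The replicate block called 1344 and 1375. The difference between arrays 1a and 1b in the AV junction correlated with that in the ventricular region at r = 0.06 across probe sets. With 1 such difference per region, this cannot show whether arrays of one letter shared a step of handling. Since each region has 1 array of each letter, the block cannot change a fold, so the unchanged member folds tell nothing about it. Car9 was the 1 lower gene of the other carbonic anhydrases, and 0 were lower with quantile normalization, median scaling, no floor or any array left out. Lower gas and water channels numbered 1 with quantile normalization, a pseudocount of 1, no floor or eBayes without trend, and higher ones 0 with the last 2; without single arrays there were 0 to 2 lower and 0 to 1 higher. Lower hypoxia genes numbered 0 with median scaling, eBayes without trend or the mean of probe sets (1 higher there) and 2 with a floor of 300 or the replicate block; without single arrays there were 0 to 1 lower and 1 to 3 higher. The cause of these changes was not tested. Signal over background limits Car4, Car14, the dim Car3 and Car8 probe sets and most of the other family genes.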
